A study of Mus musculus with 8 samples.

Results

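The genes described here are 7 imprinted genes of the mouse, *Peg3*, *Meg3*, *Rian*, *Mirg*, *Plagl1*, *Grb10* and *Kcnq1ot1*, out of 17362 genes measured by single nucleus RNA-seq in cultured islets. They were selected on measured values, since their levels over cell types and their changes with treatment and genotype in this table were known when the list was drawn up, so these are described and not tested. Islets came from wild type (WT) mice and from mice with the Med14 S983A knock-in in the whole body, in which a serine of Med14, the scaffold subunit of Mediator, is replaced by alanine. Both genotypes had an untreated pool (CON), a pool given forskolin (FSK), a direct activator of adenylyl cyclase, and a pool given the GLP-1 receptor agonist Exendin-4 (Ex-4; 10 nM, 16 h). The study describes FSK on primary islets for the same time as Ex-4, while the labels give neither its dose and time nor the age of the mice. Nuclei of all 6 conditions were carried in each of 8 sublibraries, which are therefore not replicates, and the table holds 1 pooled value for each condition in each of 9 cell types. Genotype and treatment cannot be told apart from islet preparation and barcode well, and no p-value, standard error or standard deviation is given.

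Imprinted genes are transcribed mainly from the copy inherited from one parent, a choice set by DNA methylation laid down in the germ line. *Peg3* encodes a zinc finger protein and is expressed from the paternal copy. It lies head to head with the paternally expressed *Usp29*, a ubiquitin protease gene. *Meg3*, *Rian* and *Mirg* are maternally expressed long noncoding RNAs of the Dlk1-Dio3 domain, and *Rian* and *Mirg* carry small nucleolar RNAs and microRNAs. *Plagl1* encodes a paternally expressed zinc finger factor, *Kcnq1ot1* is a paternally expressed RNA antisense to *Kcnq1*, and *Grb10* encodes an adaptor that restrains signaling by the insulin receptor. In human islets the domain that holds MEG3 has been studied in diabetes, which is one reason for interest in these genes in beta cells. The counts are not split by parental allele, so imprinting itself was not measured.

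All 7 genes have a single entry in the GRCm39 annotation, the same assembly as the mm39 build named in the submitters' processing notes. *Peg3* spans chr7:6706882-6733468 on the minus strand and *Kcnq1ot1* chr7:142731402-142850327, also on the minus strand. *Meg3* (chr12:109506877-109538165), *Rian* (chr12:109570242-109628150) and *Mirg* (chr12:109696198-109715898) follow each other on the plus strand. *Plagl1* occupies chr10:12936248-13007438 on the plus strand, and *Grb10* chr11:11880498-11988683 on the minus strand. *Kcnq1ot1* overlaps *Kcnq1* and *Rian* overlaps *Rtl1* on the opposite strand, and the sources used here do not say whether counting used strand, so reads of such partners may be mixed. *Mirg* has 3 annotated genes on the opposite strand. On the same strand, 4 annotated genes overlap *Meg3*, 18 overlap *Rian* and 14 overlap *Mirg*. How reads shared with these were counted is not given either.

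Because FSK and Ex-4 both act through cAMP, the window from 250 bases before to 50 bases after each start was searched on both strands for the cAMP response element TGACGTCA (CRE). *Peg3* and *Meg3* each held 1 copy and the other 5 members none, and 2.85% of 16530 promoters of genes in the table held it. The elements are shown with their flanks, on the strand of each gene, with the CRE in capitals.
Peg3, chr7:6733578-6733607, minus strand: actgactccgtTGACGTCAactccgtgcct
Meg3, chr12:109506811-109506840, plus strand: gcagaatgcgcTGACGTCAaagaccacccc
Positions were counted from the start of the canonical transcript, which for *Peg3* is the end of its span at base 6733468 and for *Meg3* is base 109506879, 2 bases inside its span. The *Peg3* copy lay 128 to 121 bases before that start. Its position, chr7:6733589-6733596, falls within *Usp29* (chr7:6733577-6970218), whose canonical start at base 6733582 is 114 bases from that of *Peg3*. The copy at *Meg3* lay 57 to 50 bases before the start. The 250 bases that lead up to the canonical *Meg3* start are given because the 3 RNAs of that domain moved together in alpha cells after FSK, with the CRE again in capitals.
Meg3, chr12:109506629-109506878, plus strand: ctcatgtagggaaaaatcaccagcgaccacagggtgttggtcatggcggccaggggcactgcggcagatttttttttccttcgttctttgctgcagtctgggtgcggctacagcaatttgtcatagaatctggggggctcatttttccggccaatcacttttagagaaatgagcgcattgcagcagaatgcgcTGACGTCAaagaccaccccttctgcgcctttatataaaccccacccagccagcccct
The shorter string TGACG, which a full CRE also contains, was found in 1 further member, *Kcnq1ot1*, and in 26.9% of all promoters. TGCCGC, the hexamer bound by the imprint keeper ZFP57 when methylated, was found at *Meg3*, *Plagl1* and *Grb10*, and in 14.6% of all promoters. In CG dinucleotides the 7 windows ranged from 0 at *Rian* and *Mirg* to 45 at *Grb10*, against a median of 15 over all promoters. A match is a string of letters only; no binding or methylation was measured here.

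Values are counts per 10000 counts of a column (CP10K), with counts recovered from the deposited log values. Column totals were 1915006 to 3094377 counts in beta cells, 269394 to 810127 in alpha cells, 362410 to 631433 in delta cells and 38625 to 127727 in PP cells. In the 5 other cell types they ran from 1522 to 159305. Intervals are 95% exact Poisson intervals for a level and exact conditional binomial intervals for a ratio, and cover counting error only. A difference is that of log2(CP10K + 1), and "past 1.5-fold" means beyond 0.58 on that scale in either direction.

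The beta, alpha, delta and PP columns carried their own markers. Summed beta markers (9 of 9 genes in the table) were 40.1 to 46.9 CP10K in beta columns and 3.23 to 9.71 in alpha and delta columns. Delta markers (4 of 4) summed to 4.36 to 9.73 CP10K in delta columns and 0.0194 to 0.407 in beta and alpha columns. In the delta columns beta markers, at 5.52 to 9.71 CP10K, exceeded the delta markers in every pool without FSK. The part of RNA from beta cells there was not tested. The columns labelled neuron went against their label in part, since their neuron and glia markers (4 of 5 in the table) summed to 4.06 to 11.1 CP10K, against 9.65 to 26.4 in delta columns, and beta markers reached 46.3% of the beta level there. Alpha markers in the alpha columns were uneven, at 93.8, 125 and 40.1 CP10K in WT CON, FSK and Ex-4 and 41.2, 103 and 38.9 in mutant pools.

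The WT CON pool stood apart from the other pools that had no FSK. In beta cells 0.0594% of the genes kept were past 1.5-fold between WT Ex-4 and mutant CON, and 0.0594% between WT Ex-4 and mutant Ex-4. The 2 FSK pools differed at 0.139% of genes. Against WT CON, 3.12% of genes were past 1.5-fold in WT Ex-4 and 5.34% in mutant CON. WT CON lay closer to the FSK pools, with 2.24% past in WT FSK and 2.4% in mutant FSK. Alpha and delta cells had the same division, with 0.0738% and 0.162% past between WT Ex-4 and mutant CON. There WT CON against WT FSK and mutant FSK gave 2.51% and 3.14% in alpha and 4.79% and 4.39% in delta cells. WT CON against WT Ex-4 gave 5.72% in alpha and 5.06% in delta cells. Each comparison with WT CON therefore rests on that 1 pool. For the 7 genes, WT FSK and mutant CON were also set against WT Ex-4, and these values are given where they change which genes were past 1.5-fold. WT Ex-4 was itself treated, so WT FSK against it compares FSK with Ex-4, and mutant CON against it mixes genotype with treatment. It does not stand in for an untreated WT pool and cannot show which pool is the unusual one. Comparisons of WT Ex-4 with WT CON, and those of other genes, are not given without WT CON.

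*Peg3* and *Meg3* were the most abundant members. Per kb of annotated gene span, *Meg3* reached 1.37 CP10K and *Peg3* 1.36 CP10K in beta cells, counts of the 6 conditions summed. *Rian* and *Mirg* were at 0.133 and 0.117 CP10K per kb there, and *Kcnq1ot1* at 0.0654. *Grb10* (0.00601) and *Plagl1* (0.00156) were far lower. In alpha cells *Grb10* came to 0.0489 CP10K per kb, near *Kcnq1ot1* at 0.0621.

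Over cell types, *Peg3* was at 47.9 CP10K in alpha, 46.0 in delta, 37.7 in PP and 36.2 in beta cells, conditions summed. It was at 31.6 in the columns labelled neuron and between 8.75 and 11.8 in muscle, endothelial, ductal and macrophage columns. *Meg3* had the order delta (44.6), beta (42.8), PP (36.3), alpha (35.6) and neuron (23.5), with 6.22 to 10.9 in the 4 others. *Rian* followed the same order as *Meg3* down to neuron, apart from a clearer gap of PP (6.39) over alpha (5.37). *Mirg* was at 2.31 CP10K in beta and in delta cells and at 1.43 in alpha cells. These 4 genes were thus highest in endocrine columns, but the range over the 6 conditions overlapped between every pair of neighbours in each order.

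**Figure D1:**
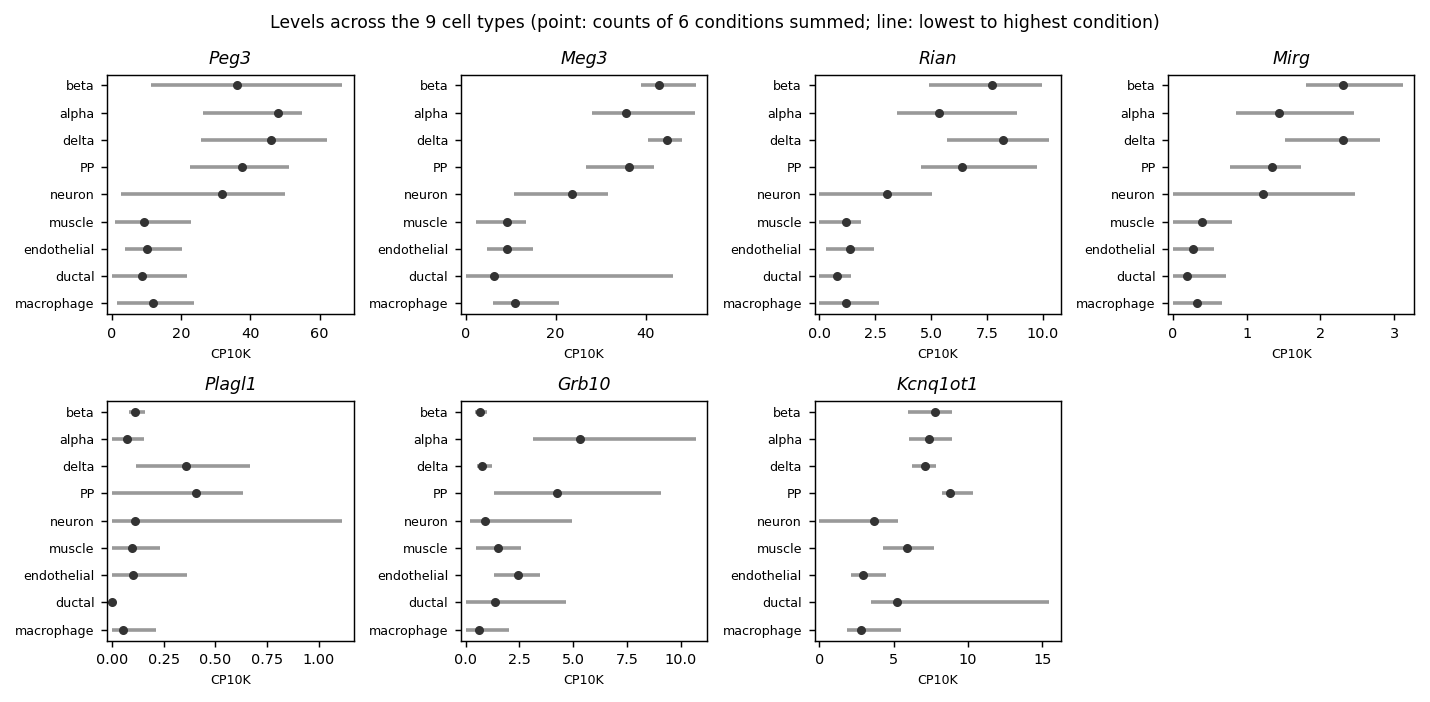
Levels of the 7 genes in the 9 cell types. The x axis is CP10K on a linear scale; points are counts of the 6 conditions summed and lines run from the lowest to the highest condition. *Peg3*, *Meg3*, *Rian* and *Mirg* have their highest points in endocrine columns, while *Grb10* is highest in alpha (5.3) and PP (4.27) cells.

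In the muscle, endothelial, ductal and macrophage columns *Peg3* was at 24.2% to 32.5% of its beta level, while beta markers in those columns were at 7.97% to 15.4% of theirs. Summed over the 5 non-endocrine columns, *Peg3* was at 5.94, 2.04 and 19 CP10K in WT CON, FSK and Ex-4 and at 17.0, 5.91 and 22.2 in mutant pools. Beta markers there were 6.99, 4.73 and 10.6 in WT and 8.32, 5.10 and 11.5 in mutant pools, the same order of treatments. The share of these non-endocrine values that came from RNA of other cells was not tested.

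*Grb10* had another distribution, at 5.3 CP10K in alpha and 4.27 in PP cells and 2.43 in endothelial cells, against 0.650 in beta and 0.781 in delta cells. The alpha level was 815% of the beta level, and the lowest alpha condition (3.11) lay above the highest beta condition (0.973). *Plagl1* was sparse everywhere, with 169 counts in all beta columns (0.111 CP10K), 107 in delta (0.360), 25 in alpha (0.0708) and 19 in PP cells (0.408). It was not seen in ductal columns, where 3 counts, taken here as the floor that a count of 0 allows, would be 0.583 CP10K over the 6 conditions. *Kcnq1ot1* was even across endocrine cells, from 7.14 CP10K in delta to 8.82 in PP cells. Its neighbours beta, alpha and delta in that order had overlapping counting intervals.

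*Peg3* had the largest single difference among the 7, in beta cells after FSK. WT beta cells had 33.2 CP10K in CON, 11.4 in FSK and 49.5 in Ex-4. The mutant had 66.5 in CON, 16.1 in FSK and 54.0 in Ex-4. Both FSK pools lay below all 4 other pools. WT FSK was at 0.344 of WT CON (interval 0.331 to 0.358), a log2 difference of -1.46, and mutant FSK at 0.242 of mutant CON (0.233 to 0.251), or -1.98. Against WT Ex-4, in place of WT CON, the difference in WT FSK was -2.03.

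Alpha cells did not share this fall. There *Peg3* was at 26.4 (CON), 45.5 (FSK) and 54.8 (Ex-4) CP10K in WT, and at 54.4, 47.5 and 50.1 in mutant pools. WT CON was the single low pool and the 5 others lay within 45.5 to 54.8. The ratio of WT FSK to WT CON was 1.73 (1.59 to 1.87), a log2 difference of 0.76, but against WT Ex-4 it was -0.26, and in the mutant -0.19. The rise of *Peg3* after FSK in alpha cells was thus seen only against the WT CON pool. Whether that pool or the treated WT Ex-4 pool is the better reference was not tested.

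In delta cells *Peg3* was low in WT CON (27 CP10K) and WT FSK (25.6) and high in WT Ex-4 (57.6). The mutant had 62.2 in CON, 38.8 in FSK and 56.8 in Ex-4. FSK against CON gave -0.08 in WT, with a ratio interval of 0.867 to 1.03, and -0.67 in the mutant. With WT Ex-4 as the WT reference it was -1.14. PP cells, on 114 to 489 counts, had *Peg3* at 22.7, 37.1 and 29.5 CP10K in WT and 38.3, 51.2 and 37.1 in mutant pools, so that FSK was the highest pool of each genotype there.

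**Figure D2:**
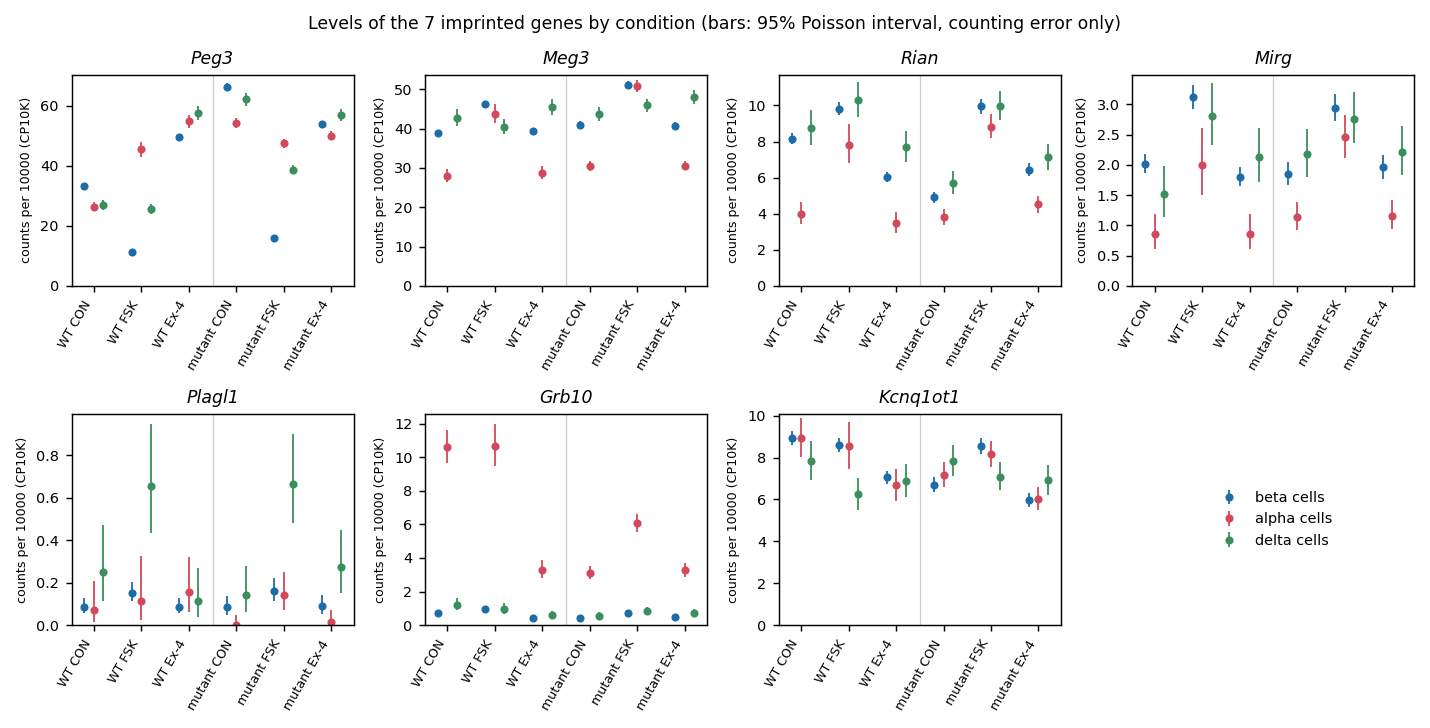
Levels of the 7 genes in each condition in beta, alpha and delta cells. The y axis is CP10K from 0; points are single pools and bars 95% Poisson intervals. *Peg3* is lowest in the FSK pools of beta cells (11.4 and 16.1), and within alpha cells *Meg3*, *Rian* and *Mirg* are highest in the FSK pools.

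The genotypes differed in *Peg3* mostly between the CON pools. Mutant CON exceeded WT CON 2.00-fold in beta (1.95 to 2.06), 2.06-fold in alpha (1.93 to 2.21) and 2.30-fold in delta cells (2.14 to 2.47). Between the Ex-4 pools the ratio of mutant to WT was 1.09 in beta, 0.913 in alpha and 0.987 in delta cells. Between the FSK pools it was 1.41 in beta, 1.04 in alpha and 1.52 in delta cells. After Ex-4, *Peg3* in WT was above CON 1.49-fold in beta (log2 difference 0.57, below the threshold), 2.08-fold in alpha and 2.13-fold in delta cells. In the mutant, Ex-4 against CON gave ratios of 0.813, 0.921 and 0.915. These comparisons share the CON pools of their genotype and are not independent.

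*Usp29*, whose start faces that of *Peg3*, followed it only in part. After FSK in WT both were lower in beta cells, with log2 differences of -0.32 for *Usp29* and -1.46 for *Peg3*. Both were higher in alpha cells, at 0.68 and 0.76, while in delta cells the values were 0.24 and -0.08. After FSK in the mutant and after Ex-4 in WT, the signs were opposite in beta, alpha and delta cells. In beta cells *Usp29* was at 3.82, 2.86 and 2.51 CP10K in WT CON, FSK and Ex-4 and at 2.51, 2.74 and 2.35 in mutant pools. The ratio of *Peg3* to *Usp29* counts within a column, which does not depend on scaling, was in WT 8.67 (8.16 to 9.23) for CON, 3.99 (3.71 to 4.3) for FSK and 19.8 (18.4 to 21.3) for Ex-4. In the mutant it was 26.5 in CON, 5.87 in FSK and 23.0 in Ex-4. Ratios were low in both FSK pools of each cell type, at 5.21 and 6.29 in alpha and 3.47 and 5.29 in delta cells. In WT CON they were low as well, at 5.19 in alpha and 4.43 in delta cells, whereas the 3 other pools ran from 11.4 to 15.8 in these cell types. The FSK pools of alpha and delta cells thus had less *Peg3* relative to *Usp29* than the 3 other pools, and *Usp29* reached 8.72 and 7.55 CP10K after FSK in alpha cells, against 5.08 and 3.64 in CON.

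*Zim1*, a maternally expressed zinc finger gene of the same domain, shared the fall of *Peg3* in beta cells after FSK. *Zim1* went from 3.34 to 0.831 CP10K in WT beta cells (log2 difference -1.24) and from 3.66 to 1.32 in the mutant (-1.01). In alpha cells it went the other way, from 6.44 to 13.8 in WT (1.00) and from 6.60 to 11.6 in the mutant (0.73). There *Peg3* was at 0.76 in WT but at -0.19 in the mutant. The *Zim1* differences in delta cells were 0.36 in WT and 0.24 in the mutant, below the threshold. Of the 6 domain genes listed with *Peg3*, *Usp29* and *Zim1* were measured and the others are not analysed here.

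**Figure D3:**
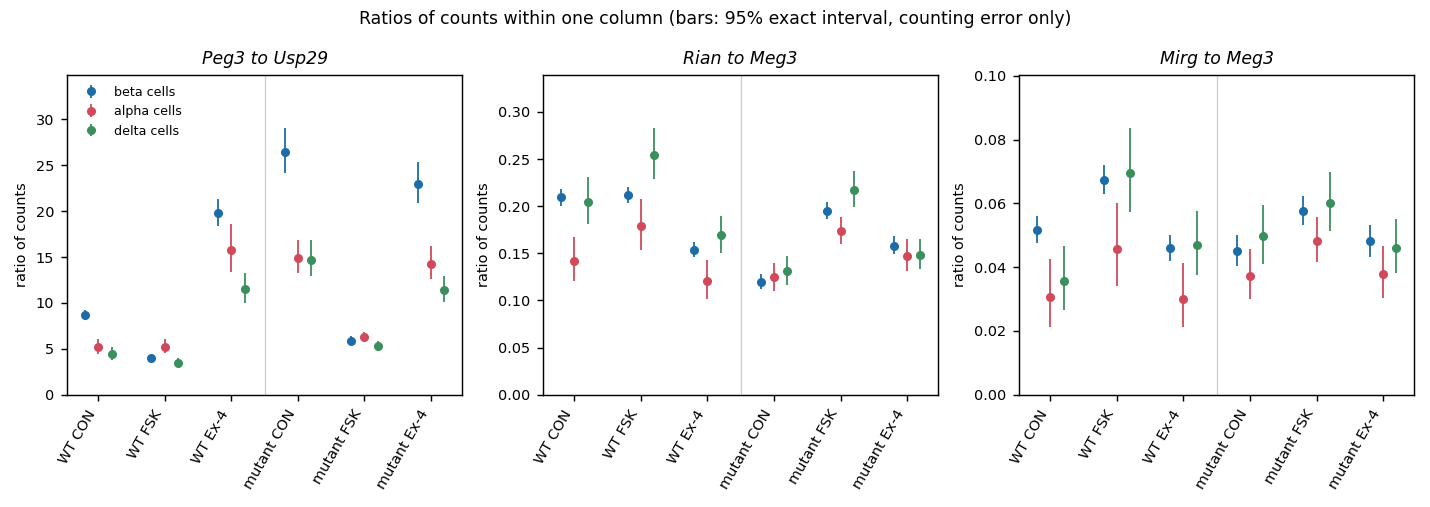
Ratios of counts within a column for *Peg3* to *Usp29*, *Rian* to *Meg3* and *Mirg* to *Meg3*. The y axes are ratios from 0; points are single pools of beta, alpha and delta cells and bars 95% exact intervals. *Peg3* to *Usp29* is lowest in WT CON and both FSK pools, and *Mirg* to *Meg3* is highest in the FSK pools.

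The RNAs of the Dlk1-Dio3 domain rose together after FSK in alpha cells. *Meg3* was at 28.0 (CON), 43.8 (FSK) and 28.8 (Ex-4) CP10K in WT, and at 30.5, 50.8 and 30.6 in mutant pools, and the order CON, FSK, Ex-4 holds for the values that follow. *Rian* was at 3.98, 7.83 and 3.48 CP10K in WT and 3.80, 8.83 and 4.51 in mutant pools. *Mirg*, on 36 to 193 counts, was at 0.859, 2.00 and 0.864 CP10K in WT and 1.14, 2.46 and 1.16 in mutant pools. For each of the 3, both FSK pools lay above the 4 other pools. The ratio of FSK to CON was 1.56 (1.44 to 1.69) for *Meg3*, 1.97 (1.60 to 2.42) for *Rian* and 2.33 (1.5 to 3.66) for *Mirg* in WT. In the mutant the ratios were 1.67 (1.58 to 1.75), 2.32 (2.03 to 2.67) and 2.16 (1.68 to 2.80). With WT Ex-4, a treated pool, in place of WT CON, the log2 differences in WT were 0.59, 0.98 and 0.69. These were past 1.5-fold as well. Summed alpha markers were also highest in the FSK pools of these columns, and the part of the alpha nuclei's makeup in the rises was not tested.

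Beta cells had smaller changes of the same RNAs. *Meg3* was at 39, 46.3 and 39.4 CP10K in WT and 41.0, 51.0 and 40.7 in mutant pools, with FSK to CON ratios of 1.19 (1.16 to 1.22) and 1.25 (1.21 to 1.28). *Mirg* was at 2.01, 3.12 and 1.80 CP10K in WT and at 1.85, 2.94 and 1.96 in mutant pools, ratios of 1.55 (1.4 to 1.72) and 1.59 (1.4 to 1.81). Both FSK pools were the highest for each gene. *Rian* was at 8.16, 9.82 and 6.05 CP10K in WT and 4.91, 9.95 and 6.44 in mutant pools. Its FSK pools were nearly equal and its CON pools were not, so the FSK to CON ratio was 1.2 (1.14 to 1.27) in WT and 2.03 (1.88 to 2.19) in the mutant, and mutant CON was at 0.602 of WT CON (0.557 to 0.649). *Rian* mutant to WT ratios were 1.01 between FSK pools and 1.06 between Ex-4 pools, and WT FSK against WT Ex-4 gave a log2 difference of 0.62 for *Rian*. Summed alpha markers in the beta columns were at 1.61 and 3.60 CP10K in WT CON and FSK and at 1.97 and 4.36 in mutant CON and FSK, and their part in these changes was not tested.

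In delta cells *Meg3* stayed between 40.4 and 48.0 CP10K in the 6 pools, and its FSK to CON ratio was 0.946 (0.882 to 1.01) in WT and 1.05 (0.995 to 1.11) in the mutant. *Rian* was at 8.75, 10.3 and 7.69 CP10K in WT and 5.72, 9.98 and 7.13 in mutant pools. *Mirg*, on 55 to 174 counts, was at 1.52, 2.81 and 2.13 CP10K in WT and 2.17, 2.76 and 2.21 in mutant pools. *Rian* and *Mirg* were thus highest after FSK while *Meg3* was not. With WT Ex-4 in place of WT CON, the log2 difference of *Mirg* in WT FSK was 0.28, below the threshold. Summed delta markers in these columns were also highest after FSK, at 5.38 and 9.73 CP10K in WT CON and FSK and 4.36 and 7.68 in mutant CON and FSK, and beta markers went from 9.71 to 5.52 in WT; their part was not tested. The ratio of *Rian* to *Meg3* counts in delta cells was 0.205 (0.181 to 0.231) in WT CON and 0.255 (0.229 to 0.283) in WT FSK, and 0.131 (0.116 to 0.147) and 0.217 (0.199 to 0.237) in mutant CON and FSK. *Mirg* to *Meg3* went from 0.0355 (0.0266 to 0.0465) to 0.0695 (0.0573 to 0.0836) in WT delta cells, while in mutant delta cells the intervals overlapped, at 0.0497 (0.0411 to 0.0595) and 0.0600 (0.0512 to 0.0700). In beta cells it went from 0.0517 (0.0475 to 0.0561) to 0.0673 (0.0630 to 0.0719) in WT and from 0.0451 (0.0405 to 0.0502) to 0.0577 (0.0533 to 0.0623) in the mutant. In alpha cells the CON and FSK intervals overlapped in both genotypes, at 0.0306 and 0.0458 for WT pools and 0.0372 and 0.0483 for mutant pools.

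*Grb10* in alpha cells separated the pools differently. It was at 10.6 (CON), 10.7 (FSK) and 3.3 (Ex-4) CP10K in WT, and at 3.11, 6.06 and 3.28 in mutant pools. WT CON and WT FSK were equal within counting error (ratio 1.01, 0.867 to 1.17), and WT Ex-4 was at 0.312 (0.257 to 0.376) of WT CON. Mutant CON was at 0.294 (0.251 to 0.344) of WT CON. In the mutant it was 1.95-fold higher (1.67 to 2.28) after FSK, a log2 difference of 0.78, and with WT Ex-4 in place of WT CON the difference in WT FSK was 1.44. The mutant to WT ratio was 0.567 between the FSK pools and 0.993 between the Ex-4 pools. The summed alpha markers given above had the same pools high and low, and their part in this result was not tested. In PP cells, on 9 to 84 counts, *Grb10* was at 3.86, 7.38 and 2.33 CP10K in WT and 2.66, 9.10 and 1.33 in mutant pools. Beta cells had it at 0.700, 0.973 and 0.433 CP10K in WT and 0.441, 0.742 and 0.486 in mutant pools, and delta cells at 1.21, 0.959 and 0.579 and at 0.530, 0.824 and 0.724.

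*Plagl1* was counted too rarely for most comparisons. In delta cells it had 9, 28 and 5 counts in WT CON, FSK and Ex-4 and 8, 42 and 15 in mutant pools, which are 0.248, 0.655 and 0.116 CP10K and 0.141, 0.665 and 0.271 CP10K. The FSK to CON ratio was 2.64 (1.21 to 6.35) in WT and 4.71 (2.18 to 11.6) in the mutant. Both FSK pools were the highest, although at this level the log2(CP10K + 1) difference, 0.41 and 0.55, stayed below the threshold. In beta cells the counts were 26, 47 and 26 in WT and 16, 37 and 17 in mutant pools, with ratios of 1.76 (1.07 to 2.96) and 1.93 (1.05 to 3.72). Alpha cells had 3, 3 and 7 counts in WT and 0, 11 and 1 in mutant pools, where the floor of 3 counts in mutant CON is 0.0370 CP10K.

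*Kcnq1ot1* passed 1.5-fold in no comparison. In beta cells it was at 8.92, 8.59 and 7.06 CP10K in WT and 6.71, 8.55 and 5.96 in mutant pools, in alpha cells at 8.92, 8.54 and 6.67 and at 7.16, 8.16 and 6.04, and in delta cells at 7.84, 6.24 and 6.88 and at 7.86, 7.08 and 6.91. The widest of its 15 differences was -0.37 for WT Ex-4 against WT CON in alpha cells. Its counts exceeded those of the overlapping *Kcnq1* in every pool of beta cells, by ratios from 17.9 to 28.3.

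The members past 1.5-fold were counted in each comparison. In WT FSK against WT CON, 1 member was past 1.5-fold in beta cells (*Peg3*), against 2.24% of the 10093 genes kept. In alpha cells 4 of 6 kept members were past it (*Peg3*, *Meg3*, *Rian* and *Mirg*, all higher), against 2.51% of 9487 genes. Delta cells had 1 (*Mirg*), against 4.79% of 9256 genes. *Plagl1* did not pass the filter on low values in alpha cells, and since the genes were chosen with these results known, the shares stand as background and nothing is read from them. The median difference of the kept members was 0.21 in beta, 0.66 in alpha and -0.08 in delta cells, and that of all kept genes -0.05, -0.04 and -0.03.

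In mutant FSK against mutant CON, *Peg3* (lower) and *Rian* (higher) were past 1.5-fold in beta cells, where 7.83% of all genes were. *Meg3*, *Rian*, *Mirg* and *Grb10* were past it in alpha cells (background 4.02%), all higher. *Peg3* (lower) and *Rian* (higher) were past it in delta cells (background 7.91%). The members' medians were 0.31, 0.71 and 0.24, and those of all genes -0.02, 0.02 and 0.00.

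For WT Ex-4 against WT CON no member was past 1.5-fold in beta cells (background 3.12%), *Peg3* and *Grb10* were in alpha cells (5.72%), in opposite directions, and *Peg3* was in delta cells (5.06%). In mutant Ex-4 against mutant CON, none was past it in beta, alpha or delta cells, against 0.0495%, 0.0422% and 0.0432% of genes. Comparing mutant CON with WT CON, *Peg3* (higher) and *Rian* (lower) were past it in beta cells (5.34%), *Peg3* (higher) and *Grb10* (lower) in alpha cells (7.38%), and *Peg3* alone (higher) in delta cells (7.05%). With WT Ex-4 in place of WT CON, no member differed past 1.5-fold from mutant CON in any of the 3 cell types.

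**Figure D4:**
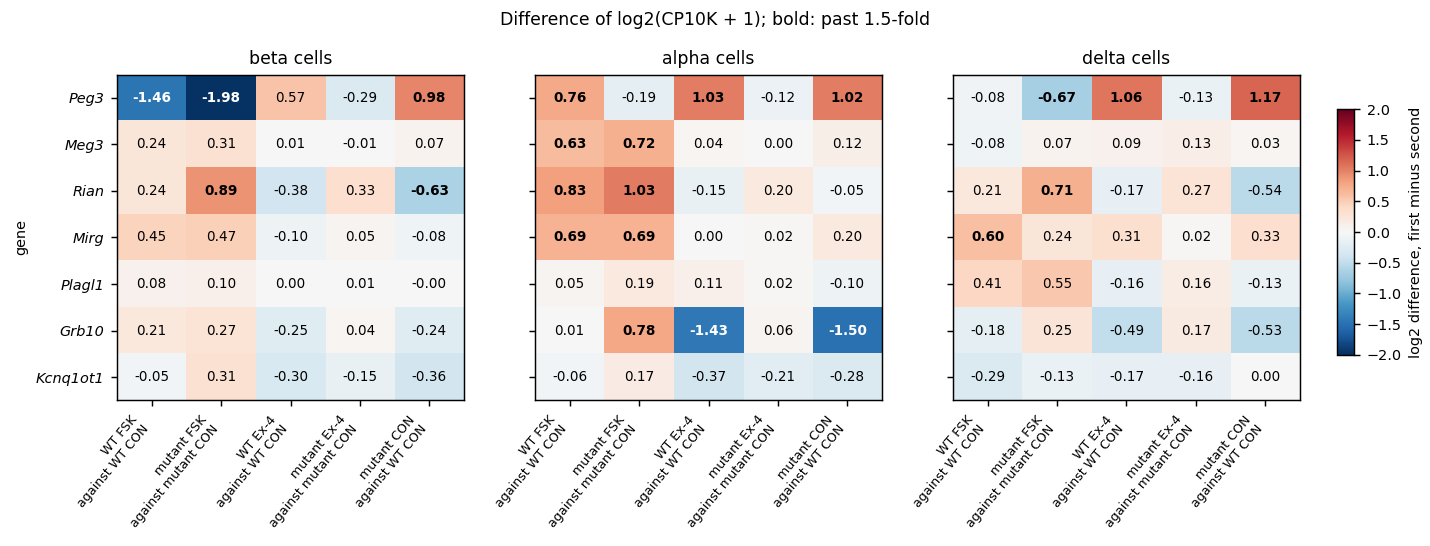
Differences of log2(CP10K + 1) for the 7 genes in 5 comparisons in beta, alpha and delta cells. Colour gives the difference, first pool minus second, from -2 (blue) to 2 (red), and bold numbers are past 1.5-fold. The mutant Ex-4 column holds no bold number, and *Peg3* has the most extreme values (-1.98 to 1.17).

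Just inside the threshold were *Mirg* in delta cells after FSK in WT (0.60), *Meg3* in alpha cells after FSK in WT (0.63) and *Rian* in beta cells of mutant against WT CON (-0.63). *Peg3* in beta cells after Ex-4 in WT (0.57), *Plagl1* in delta cells after FSK in the mutant (0.55) and *Rian* in delta cells of mutant against WT CON (-0.54) lay just outside.

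The wider set of imprinted genes and their neighbours held 73 listed genes, of which 47 were in the table and 35, 35 and 37 were kept in beta, alpha and delta cells. After FSK in WT, 2 were higher and 1 lower past 1.5-fold in beta cells (all kept genes in either direction: 2.24%), 5 and 1 in alpha cells (2.51%), and 5 and 1 in delta cells (4.79%). The mutant had 2 higher and 2 lower in beta cells (7.83%), 4 and 0 in alpha cells (4.02%), and 10 and 2 in delta cells (7.91%). After Ex-4 in WT there were 1 higher and 0 lower in beta cells (3.12%), 1 and 4 in alpha cells (5.72%), and 0 and 3 in delta cells (5.06%). After Ex-4 in the mutant none passed in these cell types (0.0495%, 0.0422% and 0.0432%). For mutant against WT CON none was higher, and 1 in beta (5.34%), 2 in alpha (7.38%) and 3 in delta cells (7.05%) were lower. In WT FSK the list's median was -0.07, 0.04 and 0.00 in the 3 cell types.

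*Gnas* encodes the stimulatory G protein subunit that activates adenylyl cyclase. Among these genes *Gnas* had the highest mean level over beta, alpha and delta cells, and a strong change after FSK in beta and delta cells. In WT CON beta cells it was lower than *Ins2*, *Airn*, *Usp29* and *Zim1*. In beta cells it went from 2.09 to 12.7 CP10K in WT (6.05-fold, 5.56 to 6.59) and from 3.15 to 15.8 in the mutant (5.02-fold). In delta cells it went from 29.4 to 142 CP10K in WT (4.85-fold) and from 18.3 to 115 in the mutant (6.25-fold). Alpha cells did not share this, at 25.3 and 20.0 CP10K in WT CON and FSK and 20.7 and 20.8 in mutant pools. *Inpp5f*, an inositol phosphatase gene, went from 1.3 to 3.07 CP10K in WT beta cells (2.36-fold) and from 1.12 to 3.92 in mutant beta cells (3.49-fold). It was also higher after FSK in delta cells, 3.66-fold in WT and 3.31-fold in the mutant. In alpha cells the ratios were 3.11 in WT and 2.04 in the mutant, from low CON levels of 0.477 and 0.679 CP10K. *Ppp1r9a*, which encodes the actin binding protein neurabin, was at 1.95 and 1.88 CP10K in WT beta cells before and after FSK. It went from 5.22 to 11.2 in WT delta cells (2.14-fold), from 4.41 to 7.60 in mutant delta cells (1.72-fold) and from 4.63 to 7.46 in WT alpha cells (1.61-fold), and was at 3.09 and 4.50 in mutant alpha cells. *Airn*, an antisense RNA of the *Igf2r* domain, was past 1.5-fold in 1 comparison, mutant FSK in delta cells (7.98 to 3.83 CP10K). *Ins2*, an insulin gene beside the *Kcnq1ot1* domain, was at 10.4, 8.81 and 16.4 CP10K in WT CON, FSK and Ex-4 in beta cells and at 15.2 and 8.76 in mutant CON and FSK.

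Of the 14 genes of the network described around *Plagl1*, 9 were in the table, among them *Grb10*, *Peg3* and *Meg3*. Of these, 6, 7 and 8 were kept in beta, alpha and delta cells. In WT FSK, *Gnas* (higher) and *Peg3* (lower) were past 1.5-fold in beta cells (all kept genes: 2.24%), *Peg3* and *Meg3* (both higher) in alpha cells (2.51%), and *Mest* and *Gnas* (both higher) in delta cells (4.79%). In mutant FSK they were *Gnas* (higher) and *Peg3* (lower) in beta cells (7.83%), *Grb10* and *Meg3* (both higher) in alpha cells (4.02%), and *Mest* and *Gnas* (higher) and *Peg3* (lower) in delta cells (7.91%). After Ex-4 in WT none was past it in beta cells (3.12%), 1 was higher (*Peg3*) and 2 lower (*Grb10* and *Slc38a4*) in alpha cells (5.72%), and *Peg3* was higher in delta cells (5.06%). None was past it after Ex-4 in the mutant. Between mutant and WT CON, *Peg3* was higher in all 3 cell types, *Grb10* lower in alpha cells and *Gnas* lower in delta cells (5.34%, 7.38% and 7.05%).

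The genes most like *Peg3* over the 18 columns of beta, alpha and delta cells, each cell type centred on its mean, were *Pofut2* (r = 0.95), *Prrc2b*, *Sf3b1*, *Hook2* and *Fnbp4* (0.93 each), among 8561 genes. For *Meg3* they included *Neb* (0.94), *Macroh2a2*, *Platr25* and *Fbp1* (0.91 to 0.92). *Rian* and *Mirg* had r = 0.75 and 0.84 with *Meg3* on this scale, and *Peg3* had -0.13. The columns share libraries, and the correlations are descriptions over 18 points. Over the 9 cell types, among 4462 genes, *Peg3* was most like *Gnao1* (0.98), *Sgsm2*, *Bsn*, *Celf3* and *Prpf4b*, and *Meg3* most like *Abcc8* (0.99), *Cacna1a*, *Rian*, *Rimbp2* and *Rph3al*. *Peg3* and *Meg3*, unlike across conditions, had r = 0.98 across cell types.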

How the data were processed

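Per the labels and the study's methods, nuclei of cultured mouse islets were profiled with a combinatorial barcoding kit. The authors aligned reads to mm39, removed nuclei with extreme counts, genes or mitochondrial share, and named cell types from marker genes. The study's methods state that nuclei were sampled down to an equal number per sample; nuclei per column and the use of strand are not given there. The deposited table holds natural log values, ln(1 + CP10K), for 17362 genes in 54 columns pooled over nuclei. The column total that makes all values whole counts was recovered, and 100% of values lay within 0.001 of a whole number.

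Columns were subtracted and divided by the natural log of 2. In each cell type a gene was kept if its mean over the 6 conditions reached the 40th percentile of the means that exceed 0. No test was run, since each condition is 1 pool. The 8 sublibraries were left ungrouped. Named genes were the 7 members, the 6 listed imprinted genes or neighbours of highest level and those past 1.5-fold after FSK in WT beta cells, and the 5 genes most correlated with *Peg3* and with *Meg3* over 18 columns (genes kept in all 3 cell types) and over 9 cell types (at least 1000 counts). One gene named by this rule is not reported here. *Kcnq1*, *Mest* and *Slc38a4* were named outside this rule, after their values were seen. Lists were the members' domains, other imprinted genes, a network described around *Plagl1*, and cell type markers. The members and lists were chosen with earlier results of these data known. Promoters came from GRCm39 with GENCODE annotation. The code was tested on simulated data. The scripts ran with pysam 0.24.0, matplotlib 3.10.9, statsmodels 0.14.6, scipy 1.17.1, pandas 2.3.3 and numpy 2.4.6 under Python 3.11.15.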

Additional observations from a re-analysis of the deposited data

Results flagged for a closer look

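*Peg3* after FSK in WT moved in opposite directions in 2 cell types. Against WT CON the log2 difference was -1.46 in beta cells and 0.76 in alpha cells. The difference between the cell types was not tested, since each condition is 1 pool. With WT Ex-4 in place of WT CON both were negative, -2.03 in beta cells and -0.26 in alpha cells, and in the mutant they were -1.98 and -0.19.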

How the results depend on the processing

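All 22 differences of a member past 1.5-fold kept their sign under the 8 other settings that keep the threshold and the WT CON reference. Of these differences, 21 stayed past the threshold in each setting. The exception was *Rian* in beta cells, mutant against WT CON (-0.63). It was -0.52 when rescaled without mitochondrial and ribosomal RNA linked genes and also missed the threshold with the length trend removed. Part of this outcome was fixed in advance. Dropping or raising the filter on low values leaves a member's difference as it is. A pseudocount below that of the main scale can only widen a difference. Only the median shift, the rescalings and the length trend could have shrunk or reversed one.

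Counts of members past 1.5-fold changed most with the scale. Shares of all kept genes past the threshold at the same setting are in brackets. On linear CP10K with a pseudocount of 0.1, WT FSK against WT CON had 2 in beta (18.9%) and 2 in delta cells (34.6%). Mutant FSK had 4 in beta cells (38.7%), and WT Ex-4 had 1 in beta (23.5%) and 3 in delta cells (37.6%). In delta cells, mutant Ex-4 had 1 (11.5%) and mutant against WT CON 3 (41.3%). With a pseudocount of 0.01 these counts were 3, 2, 5, 1, 3, 1 and 4, and that of mutant FSK in delta cells was 4. The shares in the same order were 38.3%, 48.7%, 52.5%, 37.9%, 48.6%, 22.7% and 52.7%, and 50.6% for mutant FSK in delta cells. Low counts weigh more on that scale, where 18.9% and 38.3% of all genes were past 1.5-fold for WT FSK in beta cells. At 2-fold the counts for WT FSK were 0 in alpha (0.548%) and 0 in delta cells (1.12%). Those for mutant FSK were 1 in beta (2.26%), 1 in alpha (1.16%) and 0 in delta cells (2.21%). Mutant against WT CON had 0 in beta cells (0.981%). Without mitochondrial and ribosomal RNA linked genes the count in beta cells was 1 for WT Ex-4 (3.19%) and 1 for mutant against WT CON (5.28%). With the length trend removed it was also 1 for mutant against WT CON in beta cells (3.37%). Dropping the filter, raising it to the 75th percentile, a median set to 0 and rescaling without the members changed none of the counts past 1.5 times.

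With WT Ex-4 in place of WT CON, chosen after seeing the data, the count for WT FSK in beta cells was 2 (*Peg3* and *Rian*; all kept genes 7.44%), and for mutant CON it was 0 in beta (0.0594%), 0 in alpha (0.0738%) and 0 in delta cells (0.162%). In alpha cells 4 members were past 1.5-fold after WT FSK either way (5.84% of genes), but *Grb10* took the place of *Peg3*, and in delta cells (9.37%) *Peg3* (-1.14) took the place of *Mirg*.

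Leaving out replicates was not possible because there is 1 pool per condition. Counting error limits *Plagl1* in all cell types, *Mirg* in alpha and PP cells and *Grb10* in delta and PP cells. It also limits the members in the non-endocrine columns to differing degrees, since *Peg3* and *Meg3* had 701 and 638 counts in the endothelial columns summed.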
